A study of Mus musculus with 18 samples.

Results

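Serpins are a family of proteins built on one fold, most of which block serine or cysteine proteases. An inhibitory serpin offers an exposed loop as bait, and when the protease cleaves it the loop inserts into the serpin's body and the enzyme is trapped in a covalent complex. Some members no longer inhibit and instead carry hormones or help other proteins to fold. The liver secretes most of the serpins of blood plasma, which restrain clotting, fibrinolysis, complement and neutrophil enzymes, while clade B serpins mostly stay inside cells.

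The members were all probe sets of an expression array whose annotation gives a single gene symbol starting with Serpin. The rule took 56 probe sets for 40 genes out of 45101 probe sets. This step used symbols and no measured value, though the family was chosen with earlier results of these data known. Values are log2 signals, and a probe set was tested where it exceeded 4 on at least 3 arrays, which 26 Serpin probe sets for 19 genes did, among 16663 probe sets in all. Signals of different probe sets depend on their probes, so they were compared between samples and not between genes.

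The arrays measured 3 normal livers, 7 WT tumours, 5 Tlr4-mutant tumours and 3 tumours from WT mice kept on antibiotics, all from male mice of the C3H background. Normal livers came from untreated C3H/HeOuJ mice, WT at Tlr4, at 15 weeks of age. Every tumour was hepatocellular carcinoma tissue taken at 54 weeks, after the carcinogen diethylnitrosamine (DEN, 100 mg/kg, injected) at week 12 and injections of the liver toxin carbon tetrachloride (CCl4, 0.5 ml/kg) between week 13 and week 23. WT tumours grew in C3H/HeOuJ mice and Tlr4-mutant tumours in C3H/HeJ mice, a separate substrain whose Tlr4, the receptor for bacterial lipopolysaccharide, carries the change labelled Tlr4P712H in every cell. The antibiotic group was C3H/HeOuJ with WT Tlr4, given the same DEN and CCl4, and from week 10 to week 54 its drinking water held vancomycin at 500 mg/l with metronidazole, neomycin and ampicillin at 1 g/l each. No sample of treated liver outside a tumour and no 54-week normal liver was analysed here. No label states that each sample within a group is from its own mouse, and p-values therefore reflect sample-to-sample spread that may be technical. In bulk tissue, fewer cells of a type and less RNA per cell cannot be told apart.

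Between 14455 and 15305 probe sets exceeded log2 4 on each array. Normal livers differed from tumours in more than tissue. The spiked control transcript dap read 10.2 to 10.5 in normal livers and 1.77 to 2.22 in tumours, and the 3′ minus 5′ signal of Gapdh was 1.37 to 1.61 against 0.20 to 1.02. Age, treatment, tissue and array handling therefore cannot be told apart in any comparison with normal liver. WT tumours 17 and 19 stood apart on the second principal component (81.6 and 70.2, other arrays -31.5 to 21.8). Serpin differences that changed their call without both, and some others that moved, are given with and without them. Not every move is listed. Between Tlr4-mutant and WT tumours, Serpinf1 by probe set 1453724_a_at went from 0.59 to -0.16 without both. Between tumours under antibiotics and WT tumours, Serpinb6a went from 0.42 to 1.02. The label liver held, since the summed hepatocyte markers read 16.4 to 16.8 (log2 of summed linear signal) on all 18 arrays. Taken singly, the 8 hepatocyte markers had a median difference from normal liver of -0.61 in WT tumours, with 1 higher in mean and 1 called lower. The median was -0.19 in Tlr4-mutant tumours and -0.13 under antibiotics, with none called. The summed bile duct markers read 5.52 to 5.79 in normal livers and 10.2 to 13.8 in tumours, led by Tspan8 and Prom1, with Krt7, Krt19 and Cldn4 never above 4. Of the 3 bile duct markers tested singly, 2 were higher in mean in WT tumours and 3 in each other tumour group, with 2 called in each. The part of the shift in the sum in the Serpin results was not tested.

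Of clade A, the secreted antitrypsin-like serpins, 13 of 18 probe sets passed the filter, for Serpina1b, Serpina1c, Serpina3n, Serpina4-ps1, Serpina6, Serpina7, Serpina10, Serpina11 and Serpina12. Of clade B, the intracellular serpins, 5 of 26 probe sets passed, for Serpinb6a, Serpinb6b, Serpinb8 and Serpinb9. All probe sets of clades C (Serpinc1, antithrombin), D (Serpind1, heparin cofactor II), F (Serpinf1 and Serpinf2), G (Serping1, C1 inhibitor) and H (Serpinh1, a collagen chaperone) passed, and none of the 4 of clade I did. The 21 genes with no probe set past the filter were Serpina1f, Serpina3a, Serpina3i, Serpina5 and Serpina9 in clade A, 14 genes of clade B, and Serpini1 (neuroserpin) and Serpini2 in clade I. The 14 of clade B were Serpinb1a, Serpinb1b, Serpinb2, Serpinb3a, Serpinb5, Serpinb6c, Serpinb6e, Serpinb7, Serpinb9b, Serpinb9c, Serpinb9d, Serpinb9g, Serpinb11 and Serpinb12. Of the 30 dim probe sets, the second one for Serpinb8 among them, 28 never exceeded 4. The exceptions were Serpina9 with 5.24 on 1 array and Serpinb9g with 5.87 in WT tumour 19. Just inside the threshold, 1439790_at for Serpinb9 exceeded 4 on 3 arrays, and just outside it Serpinb2 reached 3.99.

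**Figure D1:**
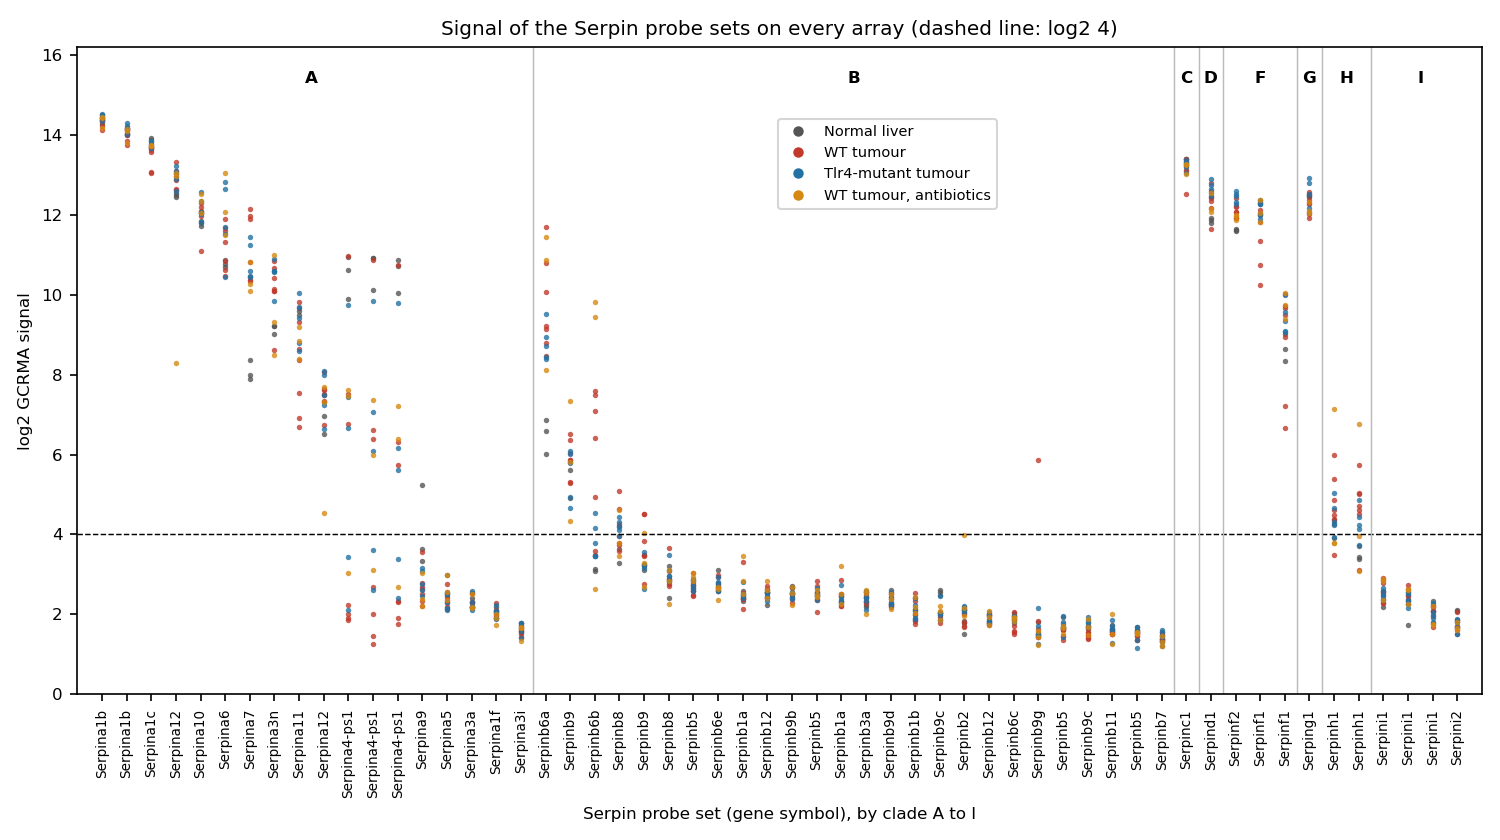
Log2 signal (vertical axis) of each of the 56 Serpin probe sets (horizontal axis, ordered by clade) on each of 18 arrays, coloured by group, with the filter level of 4 dashed. Clade A and clades C to G lie mostly far above the line, 21 of the 26 clade B probe sets and all 4 of clade I lie in the dim set, and Serpina4-ps1 and Serpinb6b cross the line from array to array.

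In WT tumours against normal liver, Serpina7, Serpinb6a and Serpinf2 rose and Serpina4-ps1 fell, as did Serpinf1 by 1 of its 2 probe sets. Serpina7 encodes thyroxine-binding globulin, a hormone carrier; Serpinb6a is a cytoplasmic inhibitor of cathepsin G; Serpinf2 is alpha-2-antiplasmin, the main inhibitor of plasmin. By limma with Benjamini-Hochberg adjustment over all 16663 probe sets, 3 of 26 Serpin probe sets were higher at an adjusted p under 0.05, where 20.9% of all probe sets were, and 4 were lower, where 19% were. As genes these were 3 higher and 2 lower of 19. The median Serpin difference was 0.44 on the log2 scale against 0.02 over all probe sets. By probe set, the members' shares of calls thus lay below the background for higher and near it for lower. Of the 4 lower calls, 3 were probe sets of the same gene, Serpina4-ps1, so the lower share depends on counting that gene by probe set.

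**Figure D2:**
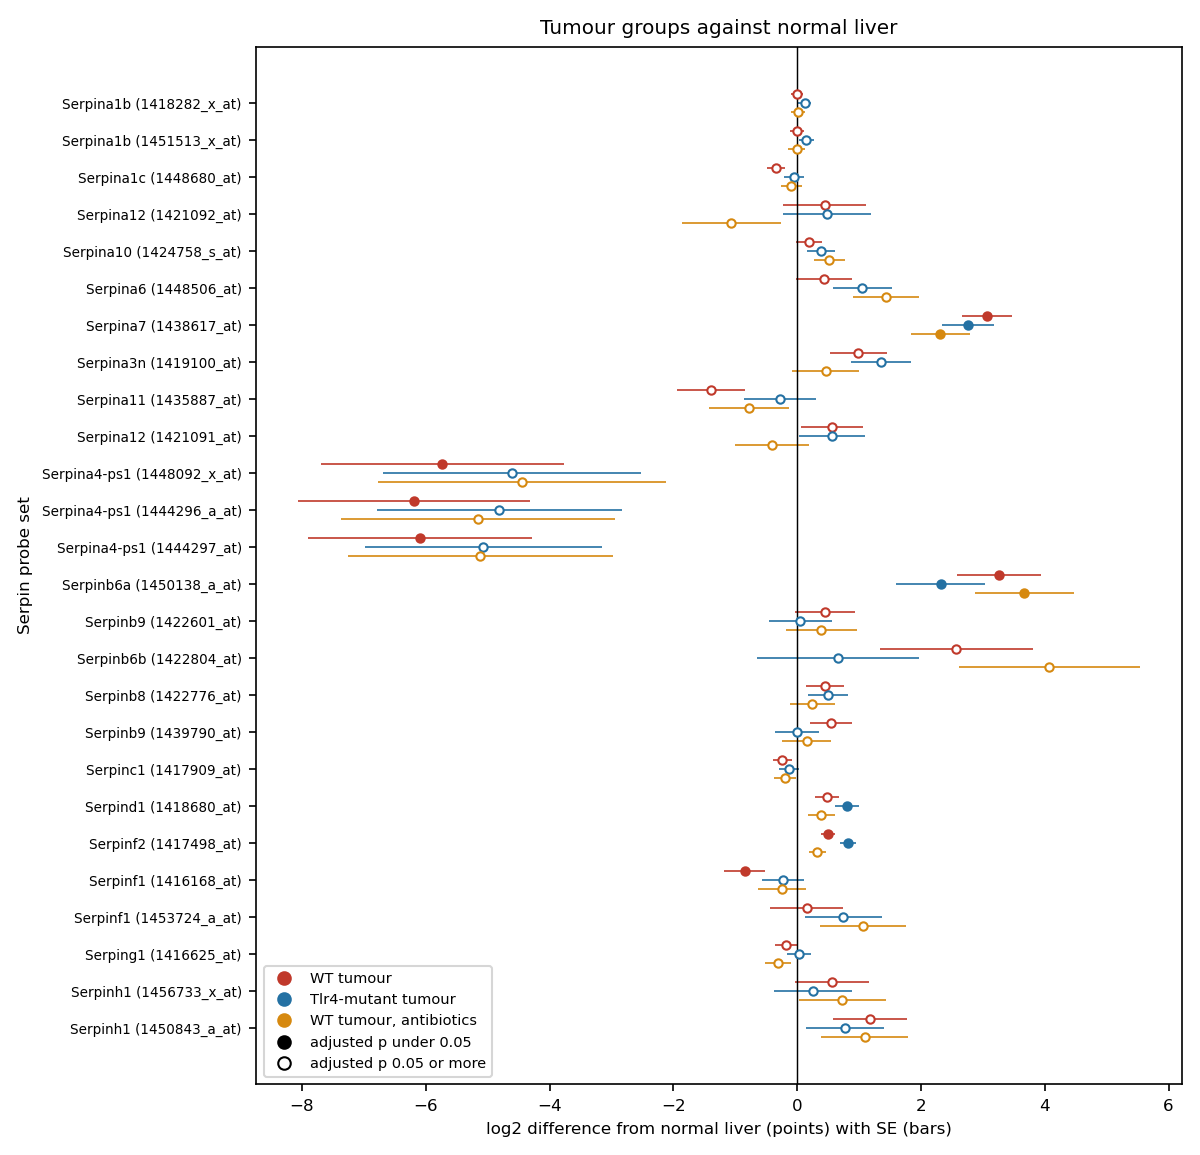
Log2 difference from normal liver (horizontal axis, points with SE bars) for the 26 tested Serpin probe sets (vertical axis) in WT tumours, Tlr4-mutant tumours and tumours under antibiotics; filled points have a limma adjusted p under 0.05. Serpina7 and Serpinb6a are filled in all 3 tumour groups, Serpinf2 in 2, and the 3 Serpina4-ps1 points are filled for WT tumours.

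Serpina7 (1438617_at) read 8.0, 8.36 and 7.88 in the normal livers, and 10.34, 10.82 and 12.2 at the lowest, median and highest of the 7 WT tumours. It read 11.45, 11.26, 10.44, 10.59 and 10.47 in the Tlr4-mutant tumours and 10.27, 10.82 and 10.10 in the tumours under antibiotics. Every one of the 15 tumours was above every normal liver, and the 3 tumour groups overlapped. The rise was 3.06 ± 0.40 (SE) in WT tumours, which is 8.34-fold (limma adjusted p = 5.45e-05, 95% interval 2.21 to 3.91). It was 2.76 ± 0.43 in Tlr4-mutant tumours (adjusted p = 0.000354) and 2.31 ± 0.48 under antibiotics (adjusted p = 0.004), both by limma. Without WT tumours 17 and 19, among the 3 highest, the rise in WT tumours was 2.71.

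Serpinb6a (1450138_a_at) read 6.0, 6.86 and 6.59 in the normal livers, and 8.46, 9.23 and 11.7 at the lowest, median and highest of the WT tumours. It read 8.45, 8.95, 9.51, 8.71 and 8.39 in the Tlr4-mutant tumours and 8.12, 10.88 and 11.46 under antibiotics. All 15 tumours lay above all normal livers, with WT tumours 17 and 19 and antibiotic tumours 29 and 30 the highest. The rise was 3.25 ± 0.68 (SE), 9.53-fold, in WT tumours (limma adjusted p = 0.0018), and 3.67 ± 0.80, 12.7-fold, under antibiotics (adjusted p = 0.0058). In Tlr4-mutant tumours it was 2.32 ± 0.72 (limma adjusted p = 0.0282). That last call was lost without normal liver 1, 2 or 3, or without Tlr4-mutant tumour 24 or 25, with adjusted p between 0.0517 and 0.111. Without WT tumours 17 and 19 the rise in WT tumours was 2.65 (limma adjusted p = 0.00361).

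Serpinf2 (1417498_at) read 11.61, 11.60 and 11.64 in the normal livers and 11.91, 12.07 and 12.41 at the lowest, median and highest of the WT tumours. It read 12.32, 12.27, 12.52, 12.60 and 12.47 in the Tlr4-mutant tumours and 11.98, 11.86 and 11.99 under antibiotics. The 15 tumours were all above the normal livers, and the 5 Tlr4-mutant tumours were all above the 3 under antibiotics. The differences from normal were small in size, 0.50 ± 0.12 (SE), or 1.41-fold, in WT tumours (limma adjusted p = 0.00365) and 0.82 ± 0.12, or 1.77-fold, in Tlr4-mutant tumours (adjusted p = 0.000266). Under antibiotics the difference was 0.33 and was not called (limma adjusted p = 0.106).

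Serpina4-ps1 is annotated as a pseudogene related to kallistatin and is covered by 3 probe sets. By 1448092_x_at, it read 10.96, 10.62 and 9.88 in the normal livers, while 4 of the 7 WT tumours read 1.87 to 2.22 and the others 6.77, 7.50 and 10.98. The Tlr4-mutant tumours read 6.66, 3.44, 7.44, 2.12 and 9.74, and those under antibiotics 7.62, 7.46 and 3.04. WT tumour 22 lay at the level of normal liver and 4 WT tumours lay below 4, so the group spanned the range from dim to normal, and both other tumour groups lay wholly below the normal livers. The fall in WT tumours was -5.74 ± 1.96 (SE) by this probe set (limma adjusted p = 0.0291), -6.19 by 1444296_a_at (adjusted p = 0.0159) and -6.09 by 1444297_at (adjusted p = 0.0144). The call by 1448092_x_at was lost without any one of the 3 normal livers or WT tumour 18 or 20 (adjusted p 0.0504 to 0.0903), and without WT tumours 17 and 19 together (-4.59, adjusted p = 0.0846). The calls by the other probe sets were lost without normal liver 2, and that by 1444296_a_at also without normal liver 1. In Tlr4-mutant tumours the differences of the 3 probe sets ran from -5.07 to -4.61 and under antibiotics from -5.16 to -4.45, none called (smallest limma adjusted p 0.0632 and 0.104). Without WT tumour 22, 2 of the 3 probe sets were called in Tlr4-mutant tumours and 1444297_at under antibiotics (-5.12, adjusted p = 0.0471).

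Serpinf1 encodes pigment epithelium-derived factor, a non-inhibitory serpin known as an inhibitor of blood vessel growth, and its 2 probe sets disagreed. By 1416168_at it read 12.27, 12.33 and 12.38 in the normal livers, and 10.25, 11.83 and 12.12 at the lowest, median and highest of the WT tumours. The Tlr4-mutant tumours read 12.28, 11.99, 12.02, 11.90 and 12.30, and those under antibiotics 12.04, 11.82 and 12.38. WT tumours 17 and 19 were the lowest by both probe sets, and all WT tumours lay below all normal livers by this one. The fall was -0.85 ± 0.33 (SE; limma adjusted p = 0.0482), a call lost in 18 of 28 other settings, among them leaving out any one normal liver. By 1453724_a_at the difference was 0.15 ± 0.59 (limma adjusted p = 0.857). Without WT tumours 17 and 19 it was 0.90 by that probe set (limma adjusted p = 0.0149) and -0.46 by 1416168_at (adjusted p = 0.0549), so the direction of Serpinf1 differed with the probe set. In the same fit 1453724_a_at was also called in Tlr4-mutant tumours (0.74, limma adjusted p = 0.0452) and under antibiotics (1.06, adjusted p = 0.0199).

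**Figure D3:**
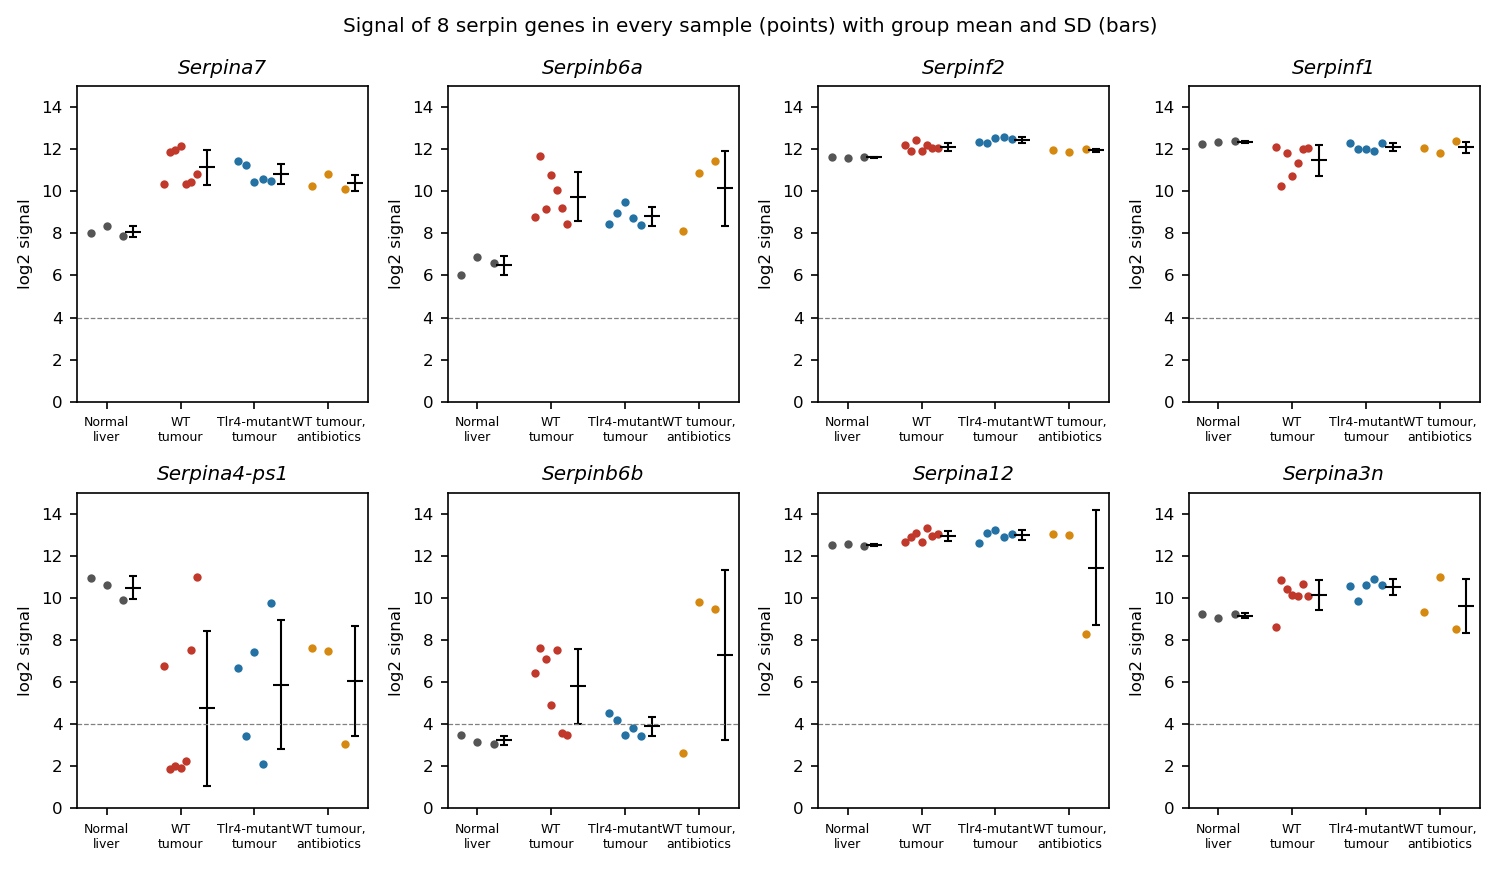
Log2 signal (vertical axis) of 8 serpin genes in every sample (points), by group (horizontal axis), with group mean and SD as bars and the filter level of 4 dashed. Serpina7 and Serpinb6a lie above normal liver in all 15 tumours, Serpina4-ps1 and Serpinb6b spread widely within groups, and 1 tumour under antibiotics has low Serpina12.

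The promoters of 4 of the 5 genes called in WT tumours are given here as RefSeq sequence on GRCm38.p6, with that of Serpinb6b, the close relative of Serpinb6a described further on. Of the 19 tested genes 15 were matched in the promoter table, all but Serpina4-ps1, Serpina6, Serpina10 and Serping1. Each window runs from 250 bases before to 50 bases after a transcript start, 5′ to 3′ on the gene's strand, and capitals mark matches on either strand to the motifs searched.
Serpina7, chrX:139085170-139085469, minus strand: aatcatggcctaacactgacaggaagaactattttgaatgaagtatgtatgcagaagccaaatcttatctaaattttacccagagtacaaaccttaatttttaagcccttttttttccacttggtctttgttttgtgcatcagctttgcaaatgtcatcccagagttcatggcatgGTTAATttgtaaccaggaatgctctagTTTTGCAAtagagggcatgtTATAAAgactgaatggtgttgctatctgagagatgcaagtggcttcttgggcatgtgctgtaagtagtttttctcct
Serpinb6a, chr13:34002745-34003044, minus strand: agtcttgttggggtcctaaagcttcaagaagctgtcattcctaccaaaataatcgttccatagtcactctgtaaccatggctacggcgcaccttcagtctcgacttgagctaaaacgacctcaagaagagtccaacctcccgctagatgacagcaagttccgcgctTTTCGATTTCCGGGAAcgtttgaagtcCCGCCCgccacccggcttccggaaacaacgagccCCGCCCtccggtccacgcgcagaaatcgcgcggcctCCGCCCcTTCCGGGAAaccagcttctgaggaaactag
Serpinb6b, chr13:32965011-32965310, plus strand: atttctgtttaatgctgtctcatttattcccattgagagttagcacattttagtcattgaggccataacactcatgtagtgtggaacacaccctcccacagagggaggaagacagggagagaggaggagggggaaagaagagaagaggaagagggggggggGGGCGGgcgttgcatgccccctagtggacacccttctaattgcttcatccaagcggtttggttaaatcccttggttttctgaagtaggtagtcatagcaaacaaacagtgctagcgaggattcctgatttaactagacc
Serpinf2, chr11:75439452-75439751, minus strand: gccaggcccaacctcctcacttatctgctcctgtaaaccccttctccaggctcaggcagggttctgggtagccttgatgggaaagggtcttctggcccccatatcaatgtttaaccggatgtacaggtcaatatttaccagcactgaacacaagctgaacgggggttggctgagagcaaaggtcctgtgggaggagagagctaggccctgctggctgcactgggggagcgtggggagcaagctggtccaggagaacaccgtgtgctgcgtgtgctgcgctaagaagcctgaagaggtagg
Serpinf1, chr11:75422574-75422873, minus strand: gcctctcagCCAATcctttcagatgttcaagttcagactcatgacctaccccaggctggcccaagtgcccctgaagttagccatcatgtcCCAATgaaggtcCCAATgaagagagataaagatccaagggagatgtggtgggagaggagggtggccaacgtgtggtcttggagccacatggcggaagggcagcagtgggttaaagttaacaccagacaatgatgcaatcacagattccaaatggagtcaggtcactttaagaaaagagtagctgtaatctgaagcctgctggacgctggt

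Promoter motifs searched were the box named TATA, spelled TATAAA here, the box named for its letters CCAAT, and the box rich in guanine and cytosine, spelled GGGCGG. Factor motifs were a HNF1 half-site spelled GTTAAT, a C/EBP site spelled TTGCNNAA, an AP-1 site spelled TGANTCA and a STAT site spelled TTCNNNGAA. For NF-kappaB the search took GGG followed, after any 3 bases, by TTCC, and for interferon-type sites (ISRE) a repeat of GAAA spaced by 2 bases. The Serpina7 window, the second of 2 overlapping ones in the table, held GTTAAT, a C/EBP match on the opposite strand (TTTTGCAA) and TATAAA, motifs found in 7.1%, 10.8% and 13.6% of 32851 promoter windows. The Serpinb6a window, the first of 2, held 3 copies of the GGGCGG motif on the opposite strand, TTCCGGGAA on both sides of the start, and an ISRE match (TTTCGATTTC) whose end overlaps the upstream TTCCGGGAA. Of all windows, 35.7% held GGGCGG, 8.3% the STAT letters and 3.44% the ISRE letters. Serpinb6b held 1 GGGCGG motif, Serpinf1 held 3 copies of CCAAT, present in 37.4% of windows, and none of the 9 motifs was found in the Serpinf2 window. These are matches of letters and were not measured as binding sites.

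In Tlr4-mutant tumours against normal liver, 4 of 26 Serpin probe sets rose, those of Serpina7, Serpinb6a, Serpinf2 and Serpind1, where 12.6% of all probe sets were called higher. None fell, where 11.7% of all were called lower (limma, adjusted p under 0.05; 9 of the 26 had an unadjusted p under 0.05). Serpind1, heparin cofactor II, a thrombin inhibitor, read 11.87, 11.93 and 11.79 in the normal livers and 12.48, 12.75, 12.65, 12.89 and 12.54 in the Tlr4-mutant tumours. The WT tumours read 11.65, 12.42 and 12.79 at their lowest, median and highest, and the tumours under antibiotics 12.55, 12.14 and 12.06. All Tlr4-mutant tumours and all tumours under antibiotics were above the normal livers, and WT tumour 19 was below them. The rise was 0.80 ± 0.20 (SE) in Tlr4-mutant tumours (limma adjusted p = 0.00938). The difference was 0.48 ± 0.19 in WT tumours (limma adjusted p = 0.0526). It was 0.60 without WT tumour 19 (adjusted p = 0.00594) and 0.66 without WT tumours 17 and 19 (limma adjusted p = 0.00339).

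In tumours under antibiotics against normal liver, 2 of 26 Serpin probe sets rose, Serpina7 and Serpinb6a, where 9.6% of all were called higher. None fell, where 8.78% of all were called lower (limma, adjusted p under 0.05; 7 of the 26 had an unadjusted p under 0.05). The median Serpin difference from normal was 0.32 in Tlr4-mutant tumours and 0.20 under antibiotics, against 0.01 and -0.01 over all probe sets. The 3 comparisons share the same 3 normal livers, so their calls are not independent of each other.

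Between tumour groups no Serpin probe set was called. In Tlr4-mutant against WT tumours, 0 of 26 passed by limma, where 0.39% of all probe sets did; 4 had an unadjusted p under 0.05, against 2971 of 16663. In tumours under antibiotics against WT tumours the count was 0 of 26, with 0.552% of all called and 2 unadjusted p-values under 0.05. In Tlr4-mutant tumours against those under antibiotics it was 0 of 26, with 0.21% of all called and 3 unadjusted p-values under 0.05. The genes with the smallest p-values are given here after their values were seen.

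Serpinf2 had the smallest Serpin p-value between Tlr4-mutant and WT tumours, with a difference of 0.32 ± 0.10 (SE; 95% interval 0.12 to 0.53; limma adjusted p = 0.134), and the groups overlapped. The next were Serpina11 (1.12, 95% interval 0.14 to 2.11), Serpinf1 by 1416168_at (0.62, interval 0.03 to 1.21) and Serpina1c (0.29, interval 0.03 to 0.56), each with the lowest values in WT tumours. Without WT tumours 17 and 19 these differences were 0.74 for Serpina11, 0.23 for Serpinf1 and 0.12 for Serpina1c, with limma adjusted p between 0.522 and 0.56, and 0.25 for Serpinf2 (adjusted p = 0.319). Serpinf2 was also first between Tlr4-mutant tumours and those under antibiotics, at 0.49 (interval 0.23 to 0.75; limma adjusted p = 0.167), where the groups did not overlap. For Serpina7 the interval of the difference between Tlr4-mutant and WT tumours ran from -1.02 to 0.42 and for Serpinb6a from -2.15 to 0.29, which leaves room for differences of either sign. Their values were -0.30 and -0.93, and 0.05 and -0.33 without WT tumours 17 and 19.

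Serpina12 encodes vaspin, a secreted inhibitor of kallikrein 7. By 1421092_at it read 12.49, 12.54 and 12.45 in the normal livers and 13.04, 12.96 and 8.29 under antibiotics. The WT tumours ran from 12.63 through a median of 12.95 to 13.33, and the Tlr4-mutant tumours read 12.61, 13.09, 13.23, 12.89 and 13.04. Antibiotic tumour 30 stood alone, also by 1421091_at, where it read 4.54 and the other arrays 6.51 to 8.10. The difference of tumours under antibiotics from WT tumours was -1.51 ± 0.67 (SE; limma adjusted p = 0.266), and without antibiotic tumour 30 it was 0.06 (adjusted p = 0.915). Without that tumour, WT and Tlr4-mutant tumours were called against normal liver at 0.45 (limma adjusted p = 0.0318) and 0.48 (adjusted p = 0.0429).

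Serpinb6b, an intracellular serpin closely related to Serpinb6a, read 3.46, 3.15 and 3.08 in the normal livers and 2.64, 9.81 and 9.45 under antibiotics. In WT tumours it ran from 3.48 through a median of 6.41 to 7.60, with 5 of 7 above 4, and in Tlr4-mutant tumours it read 4.55, 4.17, 3.47, 3.79 and 3.46. Antibiotic tumours 29 and 30, the highest for Serpinb6b, were also high for Serpinb6a, and tumour 28 was the lowest of its group for both. Normal livers were all under 4, so this probe set passed the filter through tumour arrays only. The WT mean was 3.48-fold above the level of 4. The measured difference from normal liver, 2.57 ± 1.24 (SE, limma adjusted p = 0.108), was not called. Its 95% interval of -0.05 to 5.19 includes no difference. The Tlr4-mutant tumours differed from those under antibiotics by -3.41 (95% interval -6.18 to -0.64; limma adjusted p = 0.374). Without antibiotic tumour 28 that difference was -5.74 (adjusted p = 0.0115), the 1 Serpin call between tumour groups under any setting tried. The same fit called Serpinb6b against normal liver in WT tumours (2.57, limma adjusted p = 0.0188) and under antibiotics (6.40, adjusted p = 0.00104). Each of these 2 was called in only 1 of 18 fits with 1 array left out. Array weights also gave a call in WT tumours (2.26, limma adjusted p = 0.0462). Whether the probe sets of the related Serpinb6 genes share target sequence was not tested.

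**Figure D4:**
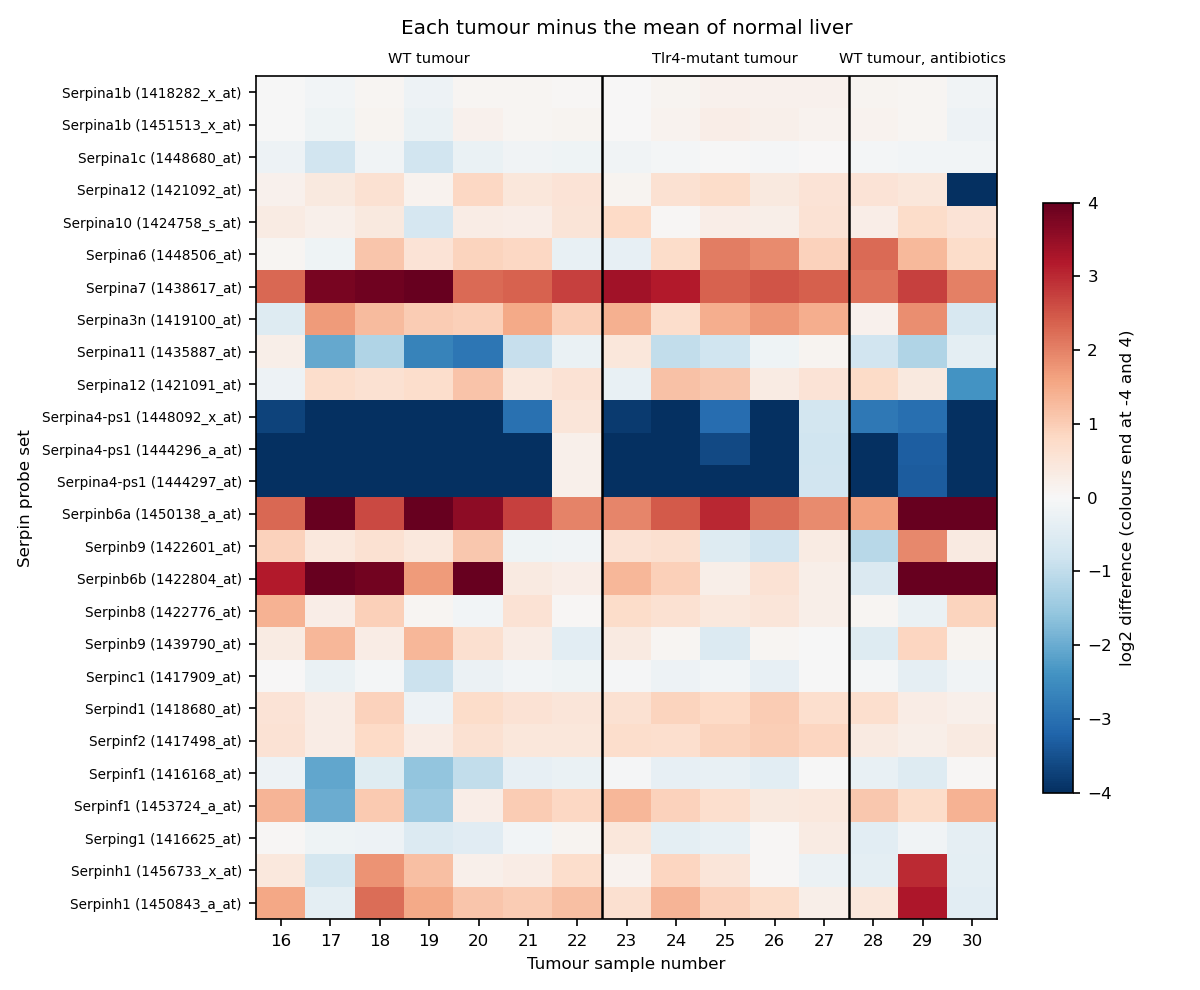
Log2 difference of each of the 15 tumours (horizontal axis, by sample number and group) from the mean of the normal livers for the 26 tested Serpin probe sets (vertical axis); colours end at -4 and 4. Serpina7 and Serpinb6a are higher in every tumour, Serpina4-ps1 is lower in all but WT tumour 22, and Serpina12 is low in antibiotic tumour 30.

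The other hormone carrier, Serpina6, corticosteroid-binding globulin, averaged 10.8 ± 0.10 (SD, n = 3) in normal livers and 11.2 ± 0.56 (n = 7) in WT tumours. It averaged 11.8 ± 0.96 (n = 5) in Tlr4-mutant tumours and 12.2 ± 0.78 (n = 3) under antibiotics. The difference under antibiotics was 1.43 ± 0.53 (SE; limma adjusted p = 0.0713) and no contrast was called in the main fit. Array weights gave calls against normal liver in Tlr4-mutant tumours (limma adjusted p = 0.00323) and under antibiotics (adjusted p = 0.0253). Both were also called without Tlr4-mutant tumour 23 (limma adjusted p = 0.0244 and 0.0372), and the second without antibiotic tumour 30 (0.0475). Neither was called without WT tumours 17 and 19 (limma adjusted p = 0.121 and 0.0749). Serpina3n, an acute phase inhibitor related to antichymotrypsin, averaged 9.14 ± 0.11 in normal livers, 10.1 ± 0.73 in WT, 10.5 ± 0.39 in Tlr4-mutant and 9.61 ± 1.28 in antibiotic tumours (SD). Its difference in Tlr4-mutant tumours was 1.35 ± 0.48 (SE; limma adjusted p = 0.0518) and in WT tumours 0.99 ± 0.46 (adjusted p = 0.0962). With 1 array left out, the first was called in 5 of 18 fits (limma adjusted p 0.0193 to 0.142) and the second in 2 of 18 (0.0196 to 0.217). Both were called without WT tumour 16, at 8.62 the lowest of its group. Without WT tumours 17 and 19 the WT difference was 0.84 (limma adjusted p = 0.191). Serpina11 averaged 9.58 ± 0.08 in normal livers and 8.18 ± 1.18 in WT tumours (SD), a difference of -1.40 ± 0.55 (SE; limma adjusted p = 0.0525), called when the arrays were centred on their medians (adjusted p = 0.0406). Without WT tumours 17 and 19 it was -1.01 (limma adjusted p = 0.142), and it was called in 2 of 18 fits with 1 array left out (0.0142 to 0.131).

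Serpina1b and Serpina1c encode copies of alpha-1-antitrypsin, the main plasma inhibitor of neutrophil elastase. Serpina1b (1418282_x_at), the clade A probe set of highest mean, read 14.27, 14.37 and 14.38 in the normal livers and 14.13, 14.37 and 14.43 at the lowest, median and highest of the WT tumours. It read 14.34, 14.46, 14.52, 14.50 and 14.51 in the Tlr4-mutant tumours and 14.46, 14.41 and 14.18 under antibiotics, so the groups overlapped throughout. The difference between WT tumours and normal liver was -0.01 (95% interval -0.22 to 0.20), or 0.05 without WT tumours 17 and 19. The mouse Serpina1 genes are near-identical copies, so a probe set can read several of them. In addition, 3 probe sets list several Serpin symbols and lie outside the rule. The one for Serpina1d and Serpina1a averaged 14.5 to 14.7 and the one for Serpina1e, Serpina1c and Serpina1b 12.0 to 12.5 over the 4 groups, neither called in any contrast. The one for Serpinb9e, Serpinb9f, Serpinb9g and Serpinb9h never exceeded 4.

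The plasma inhibitors of clotting and complement gave no call apart from Serpind1. Serpinc1, which inhibits thrombin and factor Xa, read 13.32, 13.40 and 13.40 in the normal livers and 12.53, 13.21 and 13.40 at the lowest, median and highest of the WT tumours. It read 13.33, 13.18, 13.28, 13.05 and 13.37 in the Tlr4-mutant tumours and 13.28, 13.01 and 13.25 under antibiotics. Only WT tumour 19 lay far below the rest, and the WT difference from normal liver was -0.24 (95% interval -0.56 to 0.08; limma adjusted p = 0.209), or -0.12 without WT tumours 17 and 19. Serping1, the inhibitor of complement C1 and plasma kallikrein, read 12.43, 12.49 and 12.47 in the normal livers and 11.93, 12.29 and 12.58 at the lowest, median and highest of the WT tumours. It read 12.91, 12.07, 12.17, 12.52 and 12.79 in the Tlr4-mutant tumours and 12.04, 12.31 and 12.09 under antibiotics. The tumours spread to both sides of the normal livers in the WT and Tlr4-mutant groups, while those under antibiotics lay below them (-0.31, limma adjusted p = 0.319). Serpina10, which inhibits factor Xa with protein Z, averaged 11.8 in normal livers, 12.0 in WT, 12.2 in Tlr4-mutant and 12.3 in antibiotic tumours, with no call; without WT tumours 17 and 19 the difference under antibiotics was called (0.52, limma adjusted p = 0.0494).

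Serpinh1, also known as Hsp47, binds procollagen in the endoplasmic reticulum. By 1456733_x_at it read 3.91, 4.25 and 4.36 in the normal livers and 3.48, 4.61 and 5.98 at the lowest, median and highest of the WT tumours. It read 4.31, 5.03, 4.66, 4.23 and 3.93 in the Tlr4-mutant tumours and 3.78, 7.15 and 3.79 under antibiotics. Antibiotic tumour 29 was the highest of all arrays by both probe sets (7.15 and 6.76). The WT difference was 0.57 ± 0.60 by this probe set and 1.17 ± 0.59 by 1450843_a_at (SE; limma adjusted p = 0.468 and 0.125). The remaining intracellular serpins gave no call. Serpinb9, an inhibitor of granzyme B, averaged 5.44 ± 0.46 in normal livers, 5.90 ± 0.48 in WT, 5.50 ± 0.65 in Tlr4-mutant and 5.83 ± 1.51 in antibiotic tumours (SD) by 1422601_at. Serpinb8, an inhibitor of furin, averaged 3.70, 4.15, 4.20 and 3.95 in the same order. Markers of T and NK cells, among them Gzma and Gzmb, never exceeded 4 on any array, and of 9 neutrophil markers only S100a8 and S100a9 did.

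Spread within tumour groups was wide for some members. In WT tumours 7 of 26 Serpin probe sets had an SD over 1, against 6.79% of all probe sets, namely the 3 of Serpina4-ps1 and those of Serpinb6a, Serpinb6b, Serpina11 and Serpinf1 (1453724_a_at). In Tlr4-mutant tumours only the 3 of Serpina4-ps1 did, against 3.7% of all. Under antibiotics 11 did, against 7.96%, namely the 3 of Serpina4-ps1, both of Serpina12 and of Serpinh1, and those of Serpinb6a, Serpinb6b, Serpina3n and Serpinb9 (1422601_at). The SD of Serpina4-ps1 in WT tumours (3.67 by 1448092_x_at) ranked at percentile 99.98 of the 16663 tested probe sets.

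Proteases that serpins restrain were taken from a list chosen with earlier results of these data known, as were the lists that follow. The list also holds cofactors and other partner genes, among them Lrp1, Vldlr, Ttr and Agt, so its shares are not of proteases alone. Each gene was read by its probe set of highest mean, so shares of genes stand beside shares of all probe sets. Of 37 tested genes 5 rose and 5 fell in WT tumours against normal liver by limma, 4 rose and 1 fell in Tlr4-mutant tumours, and 4 rose and 2 fell under antibiotics. Both shares in WT tumours, 13.5% each, lay below the 20.9% of all probe sets called higher and 19% called lower. In Tlr4-mutant tumours 10.8% and 2.7% stood against 12.6% and 11.7%, and under antibiotics 10.8% and 5.41% against 9.6% and 8.78%. The median difference in WT tumours was 0.09, against 0.02 over all probe sets. Casp1, the inflammatory caspase, rose by 2.92 ± 0.51 (SE; adjusted p = 0.000554) from a normal mean of 4.36, and Ctss, the lysosomal cathepsin S, rose by 2.39 ± 0.54 (limma adjusted p = 0.00304). Masp1, a protease of the lectin pathway of complement that Serping1 inhibits, changed by -1.54 ± 0.28 (limma adjusted p = 0.00071), and Tmprss6, a hepatocyte membrane protease, by -0.93 ± 0.18 (adjusted p = 0.00091). The other members called in WT tumours, listed to complete the count, were Kng1, Pros1 and Prtn3 upward and Klkb1, Masp2 and F9 downward. Summed macrophage markers ran from 9.70 to 10.9 in normal livers and from 9.28 to 12.6 in tumours; their part in these differences was not tested.

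Of 11 tested genes for collagen chains and their processing, the clients and partners of Serpinh1, 4 rose in WT tumours and none fell, with a median of 0.78. The share was 36.4% of genes, read by 1 probe set each, against 20.9% of all probe sets called higher. Col4a1, a basement membrane collagen, rose by 1.54 ± 0.52 (SE; limma adjusted p = 0.0276) and Col5a2, under 4 in all normal livers, was at least 1.67-fold higher (measured difference 1.68 ± 0.60, limma adjusted p = 0.0352). The others were P4ha1 and Crtap, and 1 gene rose in each of the other tumour groups (P4hb in Tlr4-mutant tumours and Col5a2 under antibiotics), 9.09% against 12.6% and 9.6% of all probe sets. Summed stellate cell and fibroblast markers ran from 10.4 to 11.5 in normal livers and from 11.4 to 12.6 in tumours, with Col1a1 and Des never above 4. Of 24 tested acute phase genes, to which Serpina3n is related by function, 5 rose in WT, 7 in Tlr4-mutant and 4 in antibiotic tumours, and none fell. The WT share of 20.8% was near the 20.9% of all probe sets, while 29.2% stood against 12.6% in Tlr4-mutant tumours and 16.7% against 9.6% under antibiotics. Lcn2, an iron-binding protein of the innate response, rose by 8.39 ± 0.68 (SE; limma adjusted p = 6.96e-07) in WT tumours. Cd14, which hands lipopolysaccharide over to Tlr4, was under 4 in all normal livers and at least 36.4-fold higher in WT tumours (limma adjusted p = 7.63e-06). No gene of these 3 lists was called between tumour groups.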

How the data were processed

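Expression was measured on 18 mouse oligonucleotide arrays, 1 per sample. The authors deposited log2 signals per probe set made with GCRMA, per the submitters' processing notes; its version and settings are not given in the sources used here, so its background model could set the level of dim probe sets. Groups came from the labels. Symbols came from the platform annotation, where 34945 non-control probe sets list 1 gene, 932 several and 9160 none; 64 control probe sets were left out. Probe sets above log2 4 on at least 3 arrays were fitted with limma 3.58.1 in R 4.3.3, as 4 group means with 6 contrasts, eBayes and Benjamini-Hochberg adjustment per contrast, called at adjusted p under 0.05. The fit was tested on simulated data. Arrays give no counting depth, and their number limits the precision.

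Where every array of a group was under log2 4, a fold is a bound computed against 4. Values in every sample, or the lowest, median and highest of the 7 WT tumours, are given for genes called between tumour groups, for up to 3 genes per clade called in WT tumours against normal liver, and for the gene of highest mean in each clade; from the partner lists, the 2 members of smallest adjusted p per direction are named. The probe set of highest mean stands for a gene. Other genes were named after their values were seen. The members and lists were chosen with earlier results of these data known. Alternatives were other filters, normalizations, variance models, subsets of samples and leaving out each array. Figures were drawn with matplotlib 3.10.9. The arrays name no genome build, so only promoter windows carry coordinates.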

Additional observations from a re-analysis of the deposited data

Results flagged for a closer look

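Single samples that lay far from their group by Dixon's criterion were sought in the 26 tested probe sets. The search covered the 7 WT and the 5 Tlr4-mutant tumours, 52 groups of values. It flagged 3 of the 52, which is near the rate of about 1 in 20 that chance gives. Serpina10 read 11.1 in WT tumour 19, with the next lowest WT tumour at 12.0. Serpinc1 read 12.5 in the same tumour, with the next lowest at 13.1. Serpina3n read 8.62 in WT tumour 16, with the next lowest at 10.1. Among probe sets below the filter, which no comparison used, Serpinb9g read 5.87 in WT tumour 19, while the next highest of the other arrays was 2.17 and the normal livers reached 1.80. WT tumours 17 and 19 also stood apart on the second principal component of all tested probe sets.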

How the results depend on the processing

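Across 10 other settings and 18 fits that each left out 1 array, 8 of the 13 Serpin calls were never lost where their probe set was tested, and 5 were lost at least once. Some settings left out called probe sets, and 357 checks of called differences were made. These 5 were the 3 probe sets of Serpina4-ps1 and 1416168_at of Serpinf1 in WT tumours, and Serpinb6a in Tlr4-mutant tumours. No call changed sign, and 23 of 143 uncalled differences were called under at least 1 setting. For WT tumours against normal liver the count of 7 became 4 without probe sets whose names end in _x_at, _s_at or _a_at and 13 with array weights, and ran from 3 to 9 when 1 array was left out (4 without normal liver 1, 3 without normal liver 2). Its split of 3 higher and 4 lower became 3 and 6 with arrays centred on the median. For Tlr4-mutant tumours the count of 4 became 9 with array weights and 10 with only the 2 groups in the fit, and ran from 3 to 6 with 1 array left out. For tumours under antibiotics the count of 2 became 4 with no filter, 1 without the probe sets named above, 5 with only the 2 groups and 4 without WT tumours 17 and 19, and ran from 2 to 3 with 1 array left out. Between Tlr4-mutant tumours and those under antibiotics it ran from 0 to 1. The other 2 contrasts between tumour groups gave 0 under all settings run. The setting without those name endings did not test 1450138_a_at of Serpinb6a or 1448092_x_at and 1444296_a_at of Serpina4-ps1, so their calls were removed there rather than lost. The cause of the other changes was not tested, except that shorter lists of probe sets or samples are part of some settings. No paired analysis was possible because no replicate number is shared between groups.

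Groups of 3 limit the calls, and normal livers differ from tumours in age, treatment and array controls at once. Signal near the background limits Serpinh1, Serpinb8 and the dim Serpinb6b. It also limits the size of the Serpina4-ps1 fall, since several tumours read under log2 4 for that gene. Whether probe sets read near-identical copies of a Serpin gene was not tested.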
